A study of Rattus norvegicus with 11 samples.

Results

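The genes described here are those of the core histones and their variants, taken as every row of the count files whose symbol begins with Hist and a digit, H2a, H2b, H3f, H3c, H4c or H4f, or is Cenpa, without linker histones. The rule found 45 of 42172 genes. They comprised 31 replication-dependent genes (13 for H2A, 11 for H2B, 4 for H3 and 3 for H4), 7 genes of replication-independent variants, 4 genes known from the testis and 3 rows that are a pseudogene or of unclear identity. At least 1 read was counted for 37 of the 45, and 20 had enough reads to be tested. Messenger RNA was measured in primary hippocampal neurons of CD (Sprague Dawley) IGS rats at day 7 in vitro, in 11 libraries of polyadenylated RNA. The neurons expressed H1.4 CFT, a linker histone H1.4 with a frameshifted C-terminal tail (n = 4), exogenous wild-type H1.4, here WT H1.4 (n = 4), or GFP, the green fluorescent protein, as control (n = 3). The labels describe no change to the neurons' own linker histone genes in any group, and they do not give the vector, its promoter or the share of cells that expressed it. The libraries are called CFT 1 to 4, WT 1 to 4 and GFP 2 to 4, after the replicate numbers in the labels.

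Core histones H2A, H2B, H3 and H4 form the protein spool of the nucleosome, and linker histones such as H1.4 bind where the DNA enters and leaves it. The replication-dependent genes lie in clusters, are transcribed mainly in S phase, and make transcripts that end in a stem-loop in place of a poly(A) tail. Some of them also make polyadenylated transcripts in cells that have stopped dividing. The variant genes H3f3a and H3f3b (H3.3), H2az1 and H2az2 (H2A.Z), H2ax (H2A.X), H2aj (H2A.J) and Cenpa (CENP-A, the centromeric H3) make polyadenylated transcripts. In neurons, which do not divide, H3.3 becomes the main H3 protein with age. Because the libraries were made from polyadenylated RNA, the values describe that form of each transcript, and the design does not capture transcripts without a tail.

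Of the 4 replication-dependent genes that rose in H1.4 CFT neurons against both other groups, Hist1h2bq, Hist3h2a and Hist1h2bc had 1 RefSeq entry each, and Hist2h2aa3 had no single match. The 200 bases before the start sites of those 3 and of Hist3h2ba, which fell, are shown to let the promoters be compared. They come from RefSeq on GRCr8. The counts were made on mRatBN7.2, so these coordinates belong to the sequences alone. Capitals mark 3 motifs searched on both strands: the CCAAT box (CCAAT or its reverse complement ATTGG), the TATA box (TATAAA or TTTATA) and the octamer of H2B promoters (ATTTGCAT or ATGCAAAT).
Hist1h2bq, chr17:41869342-41869541, minus strand: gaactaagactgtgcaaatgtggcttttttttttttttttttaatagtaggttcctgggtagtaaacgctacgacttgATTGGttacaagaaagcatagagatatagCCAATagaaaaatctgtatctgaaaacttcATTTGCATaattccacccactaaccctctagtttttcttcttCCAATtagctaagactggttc
Hist3h2a, chr10:44233083-44233282, plus strand: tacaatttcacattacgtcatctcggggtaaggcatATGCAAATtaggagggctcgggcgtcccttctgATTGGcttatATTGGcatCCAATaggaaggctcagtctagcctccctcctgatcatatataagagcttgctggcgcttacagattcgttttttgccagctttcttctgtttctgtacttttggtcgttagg
Hist1h2bc, chr17:47392350-47392549, minus strand: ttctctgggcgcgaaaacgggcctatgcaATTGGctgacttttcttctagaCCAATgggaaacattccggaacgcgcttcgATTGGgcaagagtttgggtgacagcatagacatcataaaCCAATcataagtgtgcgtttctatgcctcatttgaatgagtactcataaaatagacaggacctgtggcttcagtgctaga
Hist3h2ba, chr10:44225221-44225420, plus strand: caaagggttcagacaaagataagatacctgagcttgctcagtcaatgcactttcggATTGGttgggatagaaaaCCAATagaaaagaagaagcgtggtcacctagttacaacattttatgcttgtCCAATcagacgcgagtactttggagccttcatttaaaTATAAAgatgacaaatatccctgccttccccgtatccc

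The 4 stretches held 3, 3, 4 and 3 CCAAT boxes in that order. An octamer was present in those of Hist1h2bq and Hist3h2a, and the exact letters TATAAA were present in that of Hist3h2ba. The search took exact letters alone. The stretch of Hist3h2a holds the similar letters tatataag, which it left unmarked, so a TATA box there is not excluded. Over the full windows of 300 bases in the RefSeq table, 37 of 40 histone promoters held a CCAAT box, against 37.5% of all 33469 promoters. The TATA box was in 24 of the 40, against 14.2% of all promoters. For the octamer the count was 14 of 40, against 1.78% of all promoters. Some neighbours on opposite strands share most of a window, among them H2ac12 with H2bc12, H2ac20 with Hist2h2be and H2ac1 with H2bc1. Each gene of such a pair was counted, so the 40 are not separate sequences. The window of Hist3h2a overlaps that of H2bu1, an H2B gene on the other strand, and Hist3h2ba lies on the far side of H2bu1.

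Each library had 12070941 to 18846492 reads counted in genes. Reads that aligned to more than 1 place, which near-identical histone copies give, stayed outside the gene counts. They were 5.59% to 7.05% of reads in H1.4 CFT neurons, 5.68% to 6.92% with WT H1.4 and 5.80% to 6.001% in GFP libraries. The H1.4 CFT to WT H1.4 difference itself differed between libraries 1 and 2 and libraries 3 and 4 for 10.6% of 16796 genes tested (edgeR), and no label names a batch, so values within those number pairs are given beside the genes called in that comparison or called within a pair. Unless stated otherwise, levels are CPM, gene counts scaled to a common library size with TMM factors. They compare libraries, not genes, since transcript lengths were not available for the files' build. A gene rose or fell where its adjusted p was under 0.05 in edgeR's quasi-likelihood test with Benjamini-Hochberg adjustment over all 17294 genes tested.

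With H1.4 CFT relative to WT H1.4, 7 of the 20 tested histone genes rose, 1 fell and 12 did not pass, beside 35.9% of all genes tested that passed in either direction. Without CFT 4 the counts were 4 and 0, and without CFT 3, WT 1, WT 2 or WT 3 no member fell. The share of all genes that passed was 29.5% without CFT 4 and 29.3% without CFT 3. It was 31.8%, 31.3% and 32.0% without WT 1, WT 2 and WT 3. The 7 make 35% of the tested members, beside 16.7% of all genes tested that rose, and the 1 makes 5%, beside 19.2% of all genes that fell. In H1.4 CFT against GFP neurons 6 rose, 1 fell and 13 did not pass, beside 29.5% of all genes tested that passed, 13.3% of all genes that rose and 16.2% that fell. These comparisons share the H1.4 CFT libraries, and WT H1.4 against GFP shares libraries with both. The median log2 fold change of the 20 was 0.19 against WT H1.4 and 0.09 against GFP, beside 0.02 and 0.01 over all genes tested. Among the 12 tested replication-dependent genes the medians were 0.59 and 0.56, and among the 7 variant genes 0.05 and -0.06. Hist1h2bc passed the low-count filter through the H1.4 CFT libraries alone, so its call in that direction was built into its being tested. In bulk RNA, fewer cells of a type and less RNA per cell cannot be told apart.

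**Figure D1:**
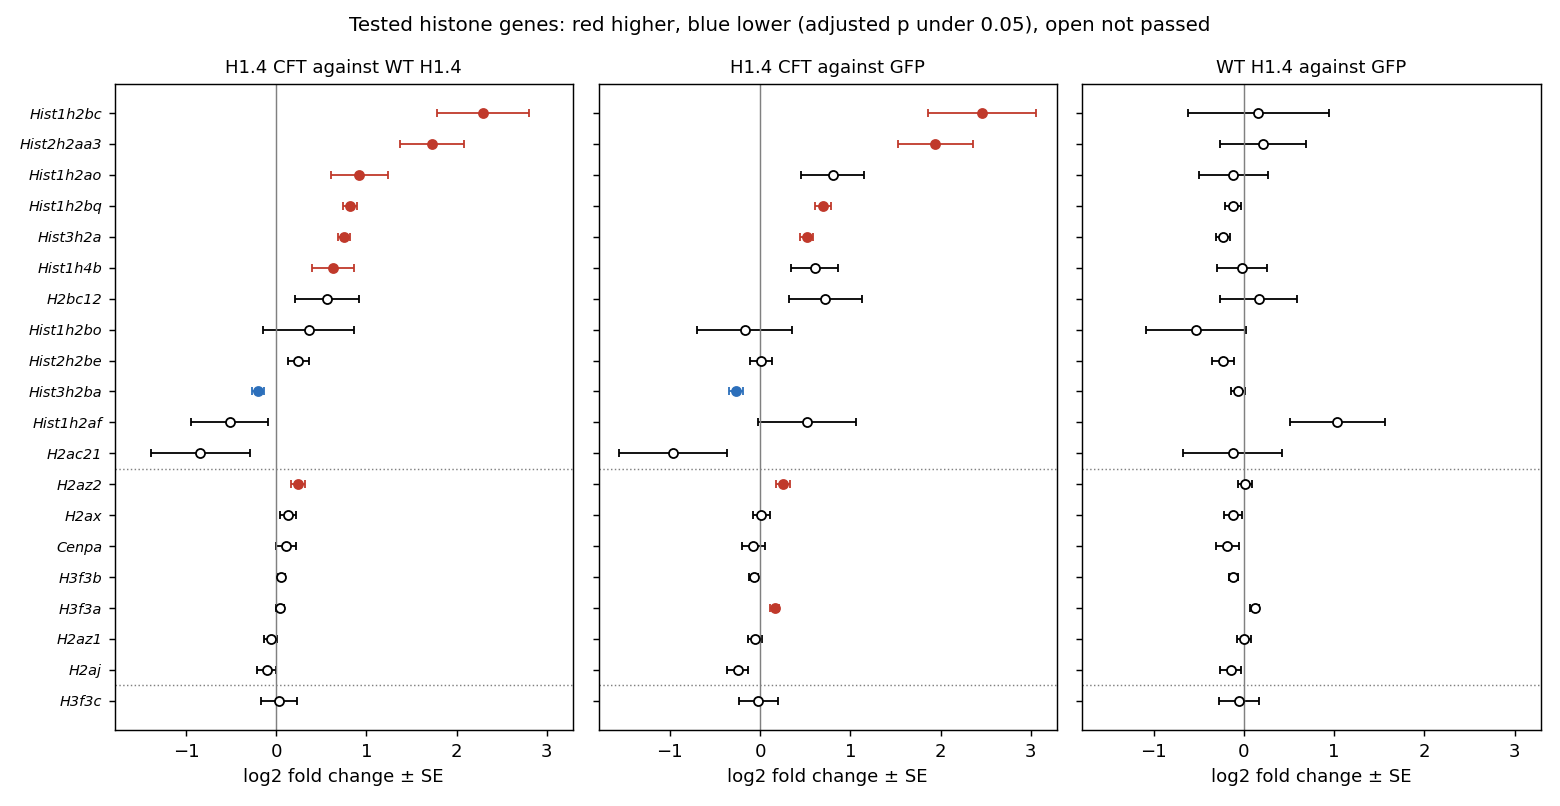
Log2 fold changes ± SE of the 20 tested histone genes in the 3 comparisons, with replication-dependent genes above the first dotted line, variant genes between the lines and the pseudogene H3f3c below, and red for genes that rose, blue for those that fell and open points for those that did not pass. The 7 red and 1 blue points of the left panel stand beside 6 and 1 in the middle and none in the right panel.

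Among the H2B genes, Hist1h2bq rose with the smallest p. It had 55.0, 51.8, 52.9 and 54.4 CPM in CFT 1 to 4, against 28.2, 27.8, 35.6 and 29.7 CPM in WT 1 to 4 and 29.6, 31.3 and 37.9 CPM in GFP 2 to 4. The H1.4 CFT libraries were all higher than any WT H1.4 or GFP library, and WT 3 and GFP 4 were the highest of theirs. The level averaged 53.5 ± 1.42 CPM in H1.4 CFT neurons, 30.3 ± 3.63 CPM with WT H1.4 and 32.9 ± 4.38 CPM in GFP (SD, n = 4, 4 and 3). The fold change was 1.76 against WT H1.4 (log2 0.82, SE 0.080, adjusted p = 5.98e-07, edgeR) and 1.62 against GFP (log2 0.70, SE 0.088, adjusted p = 1.33e-05, edgeR). Against WT H1.4 the log2 fold change was 0.93 in libraries 1 and 2 and 0.71 in libraries 3 and 4. In the GRCr8 annotation the gene overlaps H4cl1 and the pseudogene Hist1h2anl1-ps2, and the strand setting of the counting is not given.

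Hist1h2bc, another H2B gene of the large cluster, was scarce in control neurons. It had 21, 18, 22 and 16 counts in CFT 1 to 4, against 4, 8, 2 and 0 counts in WT 1 to 4 and 2, 2 and 4 counts in GFP 2 to 4. The H1.4 CFT libraries did not overlap with either other group, and WT 2 was the highest of the rest. The gene passed the low-count filter through its H1.4 CFT libraries alone. The direction of this separation and of the calls below was thus built into its being tested. On the CPM scale the level was 1.07 ± 0.190 in H1.4 CFT neurons, 0.226 ± 0.251 with WT H1.4 and 0.184 ± 0.0497 in GFP. The fitted log2 fold changes were 2.29 (SE 0.51, adjusted p = 0.00155, edgeR) and 2.46 (SE 0.60, adjusted p = 0.00414, edgeR). Against WT H1.4 they came to 1.54 in libraries 1 and 2 and 3.99 in libraries 3 and 4, where WT 4 had no read.

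Hist3h2ba, an H2B gene of the small Hist3 cluster, went the other way. Its level was 61.9, 57.6, 48.0 and 50.6 CPM in CFT 1 to 4, against 63.4, 65.6, 64.5 and 57.4 CPM in WT 1 to 4 and 67.8, 63.6 and 65.3 CPM in GFP 2 to 4. All 4 H1.4 CFT libraries lay below all 3 GFP libraries, while CFT 1 and CFT 2 lay within the range of WT H1.4. The gene fell 1.20-fold against GFP (log2 -0.27, SE 0.074, adjusted p = 0.0108, edgeR) and 1.15-fold against WT H1.4 (log2 -0.20, SE 0.069, adjusted p = 0.0272, edgeR). The call against WT H1.4 was lost without CFT 3 (adjusted p = 0.108), CFT 4 (0.091), WT 1 (0.0579), WT 2 (0.0741) or WT 3 (0.0674). It was -0.11 on the log2 scale in libraries 1 and 2 (adjusted p = 0.2) and -0.31 in libraries 3 and 4. Over its 21 alternatives the adjusted p ran between 3.96e-05 and 0.2.

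The other tested H2B genes did not pass in any comparison over all libraries. Hist2h2be, known in mice for its expression in olfactory neurons, averaged 12.3 ± 0.702 CPM in H1.4 CFT neurons, 10.4 ± 1.084 CPM with WT H1.4 and 12.3 ± 2.27 CPM in GFP. Its log2 fold change was 0.25 against WT H1.4 (adjusted p = 0.0964, edgeR) and 0.02 against GFP (adjusted p = 0.943, edgeR). Against WT H1.4 it gave 0.12 in libraries 1 and 2 (adjusted p = 0.556) and passed in libraries 3 and 4 at 0.37 (adjusted p = 0.0257). H2bc12 averaged 1.03 ± 0.381, 0.696 ± 0.0893 and 0.649 ± 0.328 CPM for H1.4 CFT, WT H1.4 and GFP. Hist1h2bo stood at 0.652 ± 0.136, 0.500 ± 0.236 and 0.728 ± 0.763 CPM in the same groups, and GFP 2 alone had 22 of its 31 GFP counts.

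Of the H2A genes, Hist3h2a changed with the smallest p. Neurons with H1.4 CFT had 58.8, 65.0, 75.4 and 73.2 CPM in CFT 1 to 4, against 42.6, 39.8, 39.8 and 40.1 CPM in WT 1 to 4 and 46.2, 46.9 and 49.7 CPM in GFP 2 to 4. The 3 groups did not overlap, with H1.4 CFT highest and WT H1.4 lowest, and within H1.4 CFT the libraries 3 and 4 were the highest. The gene rose 1.68-fold against WT H1.4 (log2 0.75, SE 0.068, adjusted p = 2.11e-07, edgeR) and 1.43-fold against GFP (log2 0.52, SE 0.074, adjusted p = 3.53e-05, edgeR). Within number pairs the log2 fold change against WT H1.4 was 0.59 in libraries 1 and 2 and 0.89 in libraries 3 and 4. WT H1.4 against GFP gave -0.23 (SE 0.075, adjusted p = 0.18, edgeR), which did not pass.

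Hist3h2a and Hist3h2ba lie in the same small cluster, and their count ratio within a library does not depend on scaling. The ratio of Hist3h2a to Hist3h2ba was 0.950, 1.13, 1.57 and 1.45 in CFT 1 to 4, against 0.672, 0.606, 0.618 and 0.698 in WT 1 to 4 and 0.681, 0.738 and 0.761 in GFP 2 to 4. No H1.4 CFT library came as low as any library of the other groups. H2bu1, which lies between them and is read from the other strand, had 9 counts in all H1.4 CFT libraries, 12 with WT H1.4 and 6 in GFP, too few to test.

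Hist2h2aa3, an H2A gene of the Hist2 cluster, had few reads and rose by more. It had 21, 44, 48 and 47 counts in CFT 1 to 4, against 5, 12, 19 and 8 counts in WT 1 to 4 and 9, 7 and 8 counts in GFP 2 to 4. CFT 1 was the lowest of the H1.4 CFT libraries, and it still lay above all others in CPM. The level was 2.20 ± 0.688 CPM in H1.4 CFT neurons, 0.667 ± 0.353 CPM with WT H1.4 and 0.574 ± 0.0872 CPM in GFP. Within number pairs the log2 fold change against WT H1.4 was 1.77 in libraries 1 and 2 and 1.72 in libraries 3 and 4. It rose 3.32-fold against WT H1.4 (log2 1.73, SE 0.35, adjusted p = 0.000763, edgeR) and 3.84-fold against GFP (log2 1.94, SE 0.41, adjusted p = 0.00144, edgeR). The symbol matched 2 RefSeq entries that share its name as a synonym, Hist2h2aa2 and H2ac18, so the reads cannot be given to 1 copy with certainty.

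Hist1h2ao rose against WT H1.4 alone, with 34, 15, 22 and 28 counts in CFT 1 to 4, against 14, 12, 13 and 9 counts in WT 1 to 4 and 13, 8 and 12 counts in GFP 2 to 4. CFT 2 lay within the range of the other groups in CPM. The log2 fold change was 0.92 (SE 0.31, adjusted p = 0.0263, edgeR) against WT H1.4 and 0.81 (SE 0.35, adjusted p = 0.0885, edgeR) against GFP. The call was lost without CFT 1 (adjusted p = 0.0992), CFT 4 (0.0575), WT 3 (0.052) or WT 4 (0.0769), and the call against GFP was gained without CFT 2 (0.0386). Within number pairs it passed in neither, with 0.78 in libraries 1 and 2 (adjusted p = 0.196) and 1.08 in libraries 3 and 4 (adjusted p = 0.0539). Over all alternatives the adjusted p ran between 0.00996 and 0.196 against WT H1.4, and between 0.0386 and 0.23 against GFP. H2ac21 and Hist1h2af were at 0.312 ± 0.211 and 0.506 ± 0.175 CPM in H1.4 CFT neurons, 0.584 ± 0.316 and 0.730 ± 0.340 CPM with WT H1.4, and 0.597 ± 0.370 and 0.348 ± 0.179 CPM in GFP, and neither passed.

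**Figure D2:**
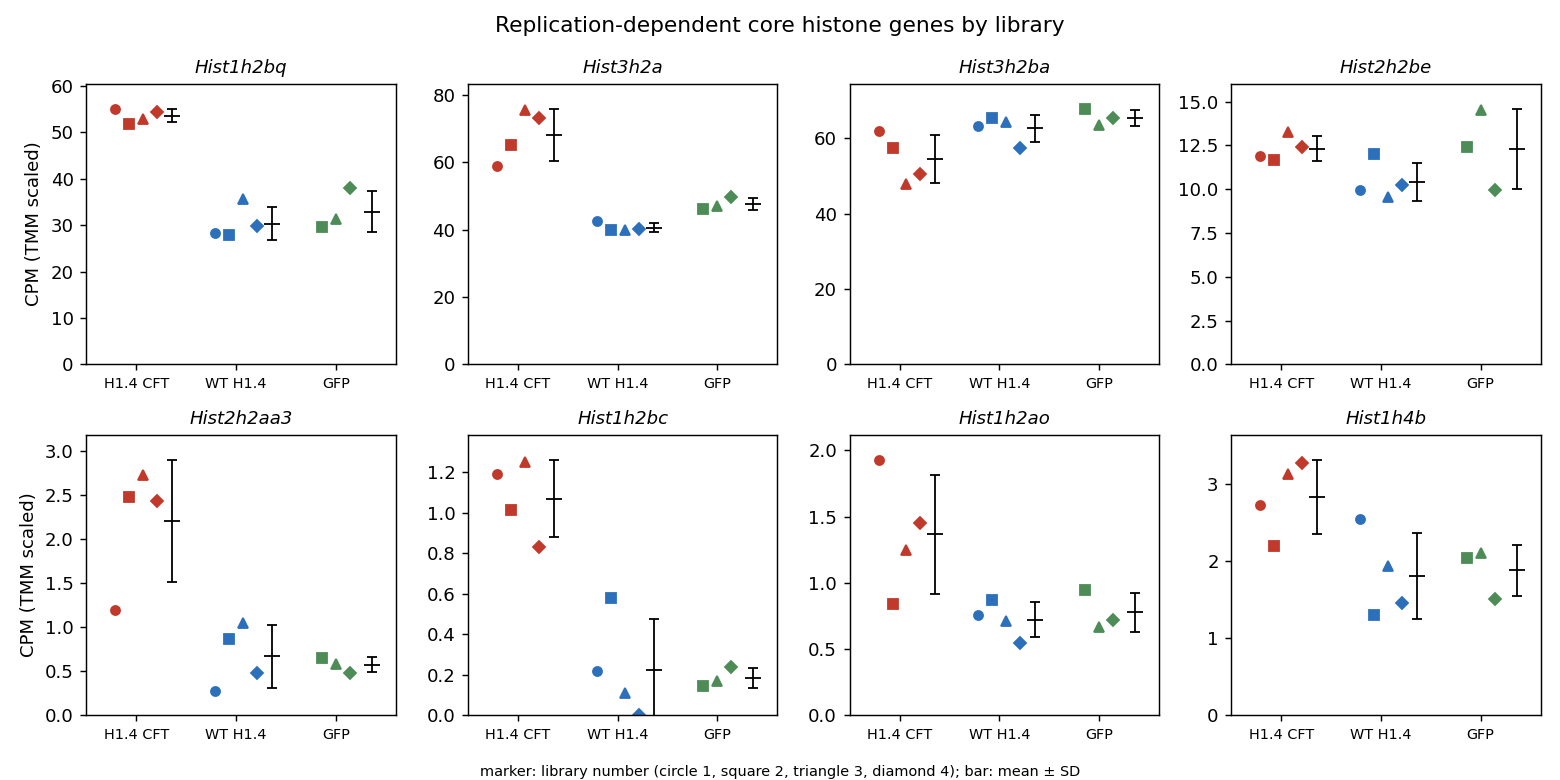
CPM of 8 replication-dependent histone genes in each library, with markers for the library number and a bar for the mean ± SD of each group (axes start at 0, which cuts the lower SD of WT H1.4 for Hist1h2bc). The H1.4 CFT points stand above all others for Hist1h2bq, Hist3h2a, Hist2h2aa3 and Hist1h2bc, below all GFP points for Hist3h2ba, and overlap WT H1.4 for Hist2h2be, Hist1h2ao and Hist1h4b.

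Hist1h4b was the single H4 gene with enough reads to test, and no replication-dependent H3 gene had enough. It had 48, 39, 55 and 63 counts in CFT 1 to 4, against 47, 18, 35 and 24 counts in WT 1 to 4 and 28, 25 and 25 counts in GFP 2 to 4. WT 1 overlapped with the H1.4 CFT libraries, and the GFP libraries did not. The gene rose 1.54-fold against WT H1.4 (log2 0.63, SE 0.23, adjusted p = 0.041, edgeR), and its log2 fold change against GFP was 0.60 (SE 0.26, adjusted p = 0.0875, edgeR). The first call was lost without CFT 1 (adjusted p = 0.0549), CFT 3 (0.0956), CFT 4 (0.113), WT 2 (0.121), WT 3 (0.0634) or WT 4 (0.117). It was 0.31 on the log2 scale in libraries 1 and 2 (adjusted p = 0.5) and 0.90 in libraries 3 and 4, and the adjusted p over all alternatives ran between 0.0113 and 0.5. Against GFP the gene passed in libraries 3 and 4 at 0.85 (adjusted p = 0.0237, edgeR), within a range of 0.0237 to 0.298 over the alternatives.

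The remaining 25 histone genes were too low to test, and 8 of them had no read in any library. The 8 were Hist1h2ah, Hist1h2bd, H3c13, the testis genes H2ac1, H2bc1 and H2ab3, and the unclear rows Hist1h2ail1 and H4f3, the last of which has the linker histone name Hist1h1d as a RefSeq synonym. A count of 0 over all libraries limits the level to 0.0165 CPM, taking 3 counts as the most that a 0 allows and counting error alone. Of the 17 with a read, 14 had a higher summed level with H1.4 CFT than with WT H1.4 and 12 a higher one than in GFP. WT H1.4 was above GFP for 10 of the 17. These levels are summed counts over library size without TMM factors, and no share over other untested genes was taken, so the counts are description alone. By mean CPM with TMM factors, Hist2h3c2 (0.296 against 0.280) and H2bu1 (0.125 against 0.124) were higher in H1.4 CFT than in GFP, opposite to their summed levels.

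Among these low genes, Hist1h2bl had 3, 6, 25 and 8 counts in CFT 1 to 4, against 0, 0, 5 and 3 counts in WT 1 to 4 and 4, 0 and 2 counts in GFP 2 to 4. CFT 3 held 25 of the 42 H1.4 CFT counts, and the symbol matched 2 RefSeq entries, Hist1h2bg and H2bc8. Without the low-count filter, over 29259 genes, its log2 fold change was 2.22 against WT H1.4 (adjusted p = 0.00572, edgeR) and 1.99 against GFP (adjusted p = 0.0425, edgeR), and without CFT 3 these became 1.32 (adjusted p = 0.33) and 1.09 (adjusted p = 0.52). The H4 gene Hist1h4m had 4, 0, 5 and 5 counts in CFT 1 to 4, 4, 0, 0 and 0 in WT 1 to 4, and 0 in GFP. Its 14 H1.4 CFT counts gave a summed level, without TMM factors, 2.88-fold that of the 3 counts that a sum of 0 in GFP allows. That ratio leaves out the counting error of the 14. Without the filter it passed against GFP (adjusted p = 0.0399, edgeR), though CFT 2 had no read. Hist1h2bl and Hist1h4m gave the further calls made when the filter was dropped.
The H2A genes Hist1h2an, Hist1h2ai and Hist1h2ak had 40, 27 and 15 counts in H1.4 CFT neurons, 20, 13 and 8 with WT H1.4, and 12, 8 and 4 in GFP. Hist2h4, for H4, had 35 counts in H1.4 CFT neurons, 14 with WT H1.4 and 5 in GFP. For the H3 genes Hist1h3b and Hist2h3c2 the sums were 26 and 21 in H1.4 CFT neurons, 7 and 11 with WT H1.4, and 6 and 13 in GFP. H2ac20 and H2bc9 had 22 and 21 counts in H1.4 CFT neurons, 18 and 16 with WT H1.4, and 17 and 9 in GFP. H3f4, an H3 gene known from the testis, had 13, 10 and 7 counts for H1.4 CFT, WT H1.4 and GFP. None of these 9 passed without the filter.

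The variant genes moved less. H2az2, one of the 2 genes for the H2A.Z variant that marks promoters, had 51.1, 50.5, 58.0 and 59.9 CPM in CFT 1 to 4, against 43.5, 43.6, 47.8 and 50.7 CPM in WT 1 to 4 and 42.7, 51.5 and 44.0 CPM in GFP 2 to 4. WT 4 and GFP 3 reached into the lower part of the H1.4 CFT range. H2az2 rose 1.18-fold against WT H1.4 (log2 0.24, SE 0.073, adjusted p = 0.0135, edgeR) and 1.19-fold against GFP (log2 0.26, SE 0.080, adjusted p = 0.0202, edgeR). Against WT H1.4 the log2 value was 0.22 in libraries 1 and 2 and 0.26 in libraries 3 and 4. The first call was lost without CFT 4 (adjusted p = 0.0512) or WT 1 (0.0527), and the second without CFT 3 (0.0549), CFT 4 (0.062), GFP 2 (0.105) or GFP 4 (0.0996). Over the alternatives the adjusted p ran between 0.000512 and 0.0527 against WT H1.4 and between 0.000115 and 0.105 against GFP.

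H2az1, the other H2A.Z gene, did not pass and averaged 138 ± 15.7 CPM in H1.4 CFT neurons, 144 ± 5.96 CPM with WT H1.4 and 144 ± 10.9 CPM in GFP. Its log2 fold change against WT H1.4 was -0.06 (SE 0.070, adjusted p = 0.54, edgeR). It was -0.15 in libraries 1 and 2 (adjusted p = 0.0121) and 0.02 in libraries 3 and 4 (adjusted p = 0.806). The count ratio of H2az2 to H2az1 was 0.391, 0.421, 0.384 and 0.395 in CFT 1 to 4, against 0.312, 0.315, 0.318 and 0.342 in WT 1 to 4 and 0.324, 0.351 and 0.288 in GFP 2 to 4. The H1.4 CFT ratios lay above all others, with WT 4 and GFP 3 the nearest.

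H3f3a and H3f3b encode H3.3, the H3 that is deposited outside S phase. H3f3a had 330, 316, 363 and 357 CPM in CFT 1 to 4, against 324, 340, 336 and 325 CPM in WT 1 to 4 and 291, 312 and 313 CPM in GFP 2 to 4. All H1.4 CFT and WT H1.4 libraries lay above all GFP libraries. H3f3a rose 1.12-fold in H1.4 CFT against GFP (log2 0.16, SE 0.050, adjusted p = 0.0186, edgeR), a call lost without CFT 3 (adjusted p = 0.0669), CFT 4 (0.0519) or GFP 2 (0.0986) and with an adjusted p between 2.66e-06 and 0.0986 over the alternatives. It did not pass in WT H1.4 against GFP (log2 0.12, SE 0.050, adjusted p = 0.354, edgeR) or with H1.4 CFT relative to WT H1.4 (log2 0.04, SE 0.046, adjusted p = 0.482, edgeR). This last comparison gave -0.04 in libraries 1 and 2 (adjusted p = 0.483) and passed in libraries 3 and 4 at 0.12 (adjusted p = 0.0048).
H3f3b averaged 566 ± 37.3 CPM in H1.4 CFT neurons, 547 ± 9.61 CPM with WT H1.4 and 594 ± 32.4 CPM in GFP, and passed in no comparison over all libraries. Against WT H1.4 its log2 fold change was -0.03 in libraries 1 and 2 (adjusted p = 0.502), and it passed in libraries 3 and 4 at 0.13 (adjusted p = 0.00093). The count ratio of H3f3a to H3f3b was 0.618, 0.588, 0.621 and 0.586 in CFT 1 to 4, 0.603, 0.608, 0.620 and 0.593 in WT 1 to 4, and 0.523, 0.507 and 0.513 in GFP 2 to 4. The ratio was thus higher in every library with exogenous H1.4, mutant or wild type, than in any GFP library, and the H1.4 groups overlapped.

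H2ax, whose protein is phosphorylated at DNA breaks, had 48.8, 55.8, 67.8 and 62.5 CPM in CFT 1 to 4, against 50.3, 51.8, 56.6 and 55.2 CPM in WT 1 to 4 and 52.3, 58.4 and 63.5 CPM in GFP 2 to 4. The groups overlapped, and the gene passed in no comparison, with a log2 fold change of 0.14 against WT H1.4 (SE 0.089, adjusted p = 0.257, edgeR). That comparison passed without CFT 1 (adjusted p = 0.0262) and in libraries 3 and 4 (0.00333), within a range of 0.00333 to 0.715 over the alternatives. Cenpa, the centromeric H3 of dividing cells, averaged 10.04 ± 1.43 CPM in H1.4 CFT neurons, 9.31 ± 0.709 CPM with WT H1.4 and 10.6 ± 0.536 CPM in GFP, and passed in no comparison. H2aj, whose protein differs from H2A at its C-terminal end, averaged 12.5 ± 1.404, 13.5 ± 0.900 and 14.9 ± 2.21 CPM in the same groups and passed in none. The pseudogene row H3f3c stood at 3.43 ± 0.460, 3.37 ± 0.722 and 3.48 ± 0.901 CPM.

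**Figure D3:**
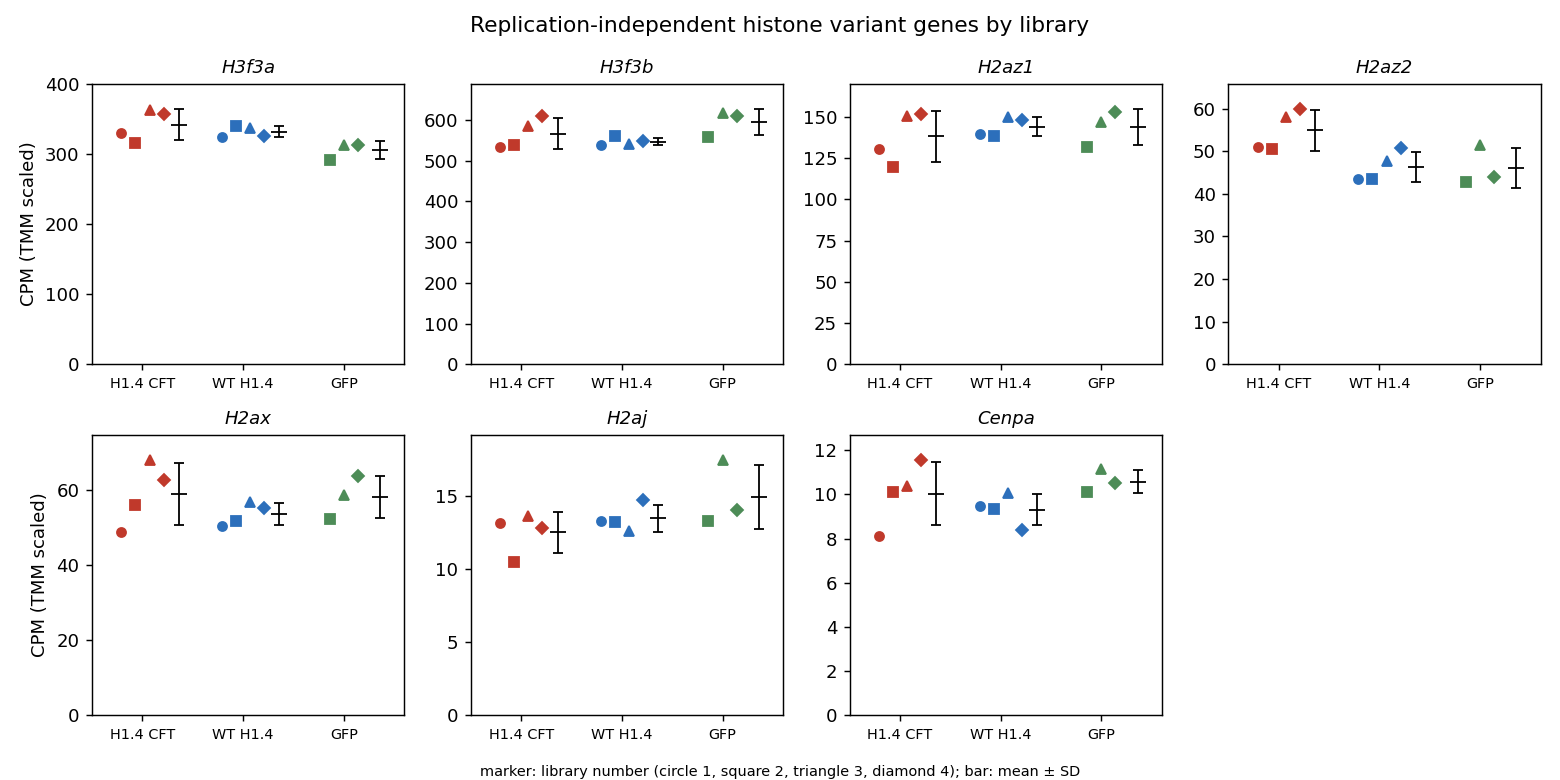
CPM of the 7 histone variant genes in each library, with markers for the library number and a bar for the mean ± SD. H2az2 is highest in H1.4 CFT with some overlap, H3f3a is lowest in the 3 GFP libraries, and the groups overlap for H2ax, H2az1, H2aj and H3f3b.

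No histone gene rose or fell in WT H1.4 against GFP neurons by edgeR, DESeq2 or limma-voom, beside 0.943% of all genes tested that passed by edgeR, 0.434% of all genes tested that rose and 0.509% that fell. At an unadjusted p under 0.05, edgeR gave 3 genes, Hist3h2a, H3f3a and H3f3b, with log2 fold changes of -0.23, 0.12 and -0.12. No share over all genes was taken at that unadjusted threshold, so this count is description alone. The median of the 20 tested genes was -0.09, beside -0.001 over all genes. In libraries 3 and 4 alone, Hist3h2a (log2 -0.28, adjusted p = 0.00435, edgeR) and H3f3b (log2 -0.17, adjusted p = 0.000193, edgeR) fell in WT H1.4 neurons relative to GFP, beside 9.25% of all genes that passed in that fit.

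Summed over the 31 replication-dependent genes, the level was 201, 199, 206 and 204 CPM in CFT 1 to 4, against 154, 154, 158 and 144 CPM in WT 1 to 4 and 164, 164 and 171 CPM in GFP 2 to 4. The groups did not overlap. Hist3h2a, Hist3h2ba, Hist1h2bq and Hist2h2be made up most of that sum. The other 27 genes together gave 14.2 ± 1.56 CPM in H1.4 CFT neurons, 8.20 ± 1.27 CPM with WT H1.4 and 7.99 ± 0.553 CPM in GFP. By histone, the H2A genes summed to 74.2 ± 7.80, 44.3 ± 1.51 and 51.0 ± 2.00 CPM, and the H2B genes to 124 ± 5.73, 106 ± 5.05 and 113 ± 2.11 CPM, for H1.4 CFT, WT H1.4 and GFP. The H4 genes came to 3.50 ± 0.352, 2.06 ± 0.802 and 1.99 ± 0.322 CPM and the H3 genes to 0.675 ± 0.385, 0.330 ± 0.104 and 0.517 ± 0.288 CPM in the same groups. The 7 variant genes together gave 1182 ± 86.5 CPM in H1.4 CFT neurons, 1145 ± 18.0 CPM with WT H1.4 and 1173 ± 65.05 CPM in GFP, which overlapped. These sums were not tested, since the genes were chosen with results of these data known.

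**Figure D4:**
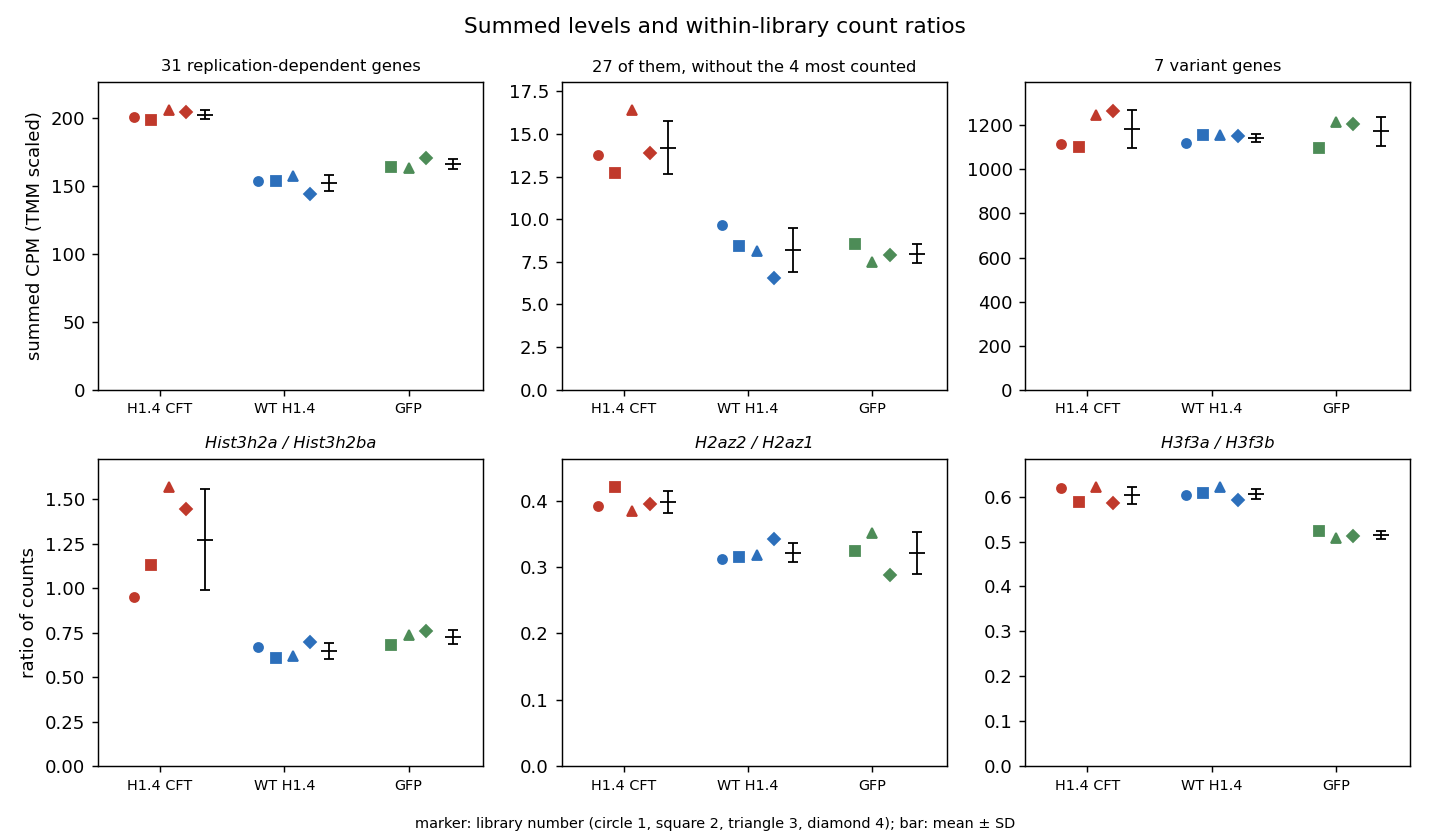
Top, summed CPM of the replication-dependent genes, of the 27 that remain without the 4 most counted, and of the 7 variant genes, and bottom, count ratios of 3 gene pairs, for each library with the mean ± SD. The H1.4 CFT libraries stand apart from both other groups in the first 2 sums and in Hist3h2a over Hist3h2ba and H2az2 over H2az1, while for H3f3a over H3f3b the 3 GFP libraries stand below all others.

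A list of 26 genes, all tested, covers histone gene transcription and the 3' end processing and decay of histone transcripts. Of these, 5 rose and 2 fell relative to WT H1.4 with H1.4 CFT, with a median log2 fold change of 0.07. Over all genes 16.7% rose and 19.2% fell in that comparison. Against GFP 6 rose and none fell, with a median of 0.08, beside 13.3% and 16.2% over all genes. Upf1, a helicase that takes part in histone mRNA decay, rose by 0.29 and 0.25 on the log2 scale (adjusted p = 6.17e-05 and 0.000701, edgeR). Srrt, a cap-complex protein, and Cstf1, a cleavage factor, had log2 fold changes of 0.24 and 0.34 against WT H1.4 and passed in both comparisons, as did Gon4l. Lsm11, a subunit of the U7 particle that cleaves histone transcripts, fell to 165 ± 33.8 CPM in H1.4 CFT neurons, against 217 ± 15.8 CPM with WT H1.4 (log2 -0.39, adjusted p = 0.0475, edgeR). Relative to GFP, at 213 ± 9.31 CPM, it did not pass (log2 -0.37, adjusted p = 0.0878, edgeR). Slbp, the stem-loop binding protein, had 32.1 ± 1.19, 31.4 ± 1.74 and 35.4 ± 1.73 CPM for H1.4 CFT, WT H1.4 and GFP and did not pass. Npat, the coactivator of histone gene transcription, stood at 41.7 ± 1.24, 38.6 ± 0.680 and 39.1 ± 4.26 CPM and did not pass either.

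Of 41 histone chaperones and loading factors, 4 rose and 8 fell with H1.4 CFT relative to WT H1.4, and 3 rose and 4 fell against GFP, with medians of 0.04 and 0.02. These were 9.76% and 19.5% of the list against WT H1.4 and 7.32% and 9.76% against GFP, beside 16.7%, 19.2%, 13.3% and 16.2% of all genes. Nap1l2, a nucleosome assembly protein of neurons, fell to 31.7 ± 2.50 CPM in H1.4 CFT neurons, against 44.5 ± 2.79 CPM with WT H1.4 (1.404-fold, adjusted p = 1.91e-05, edgeR) and 49.6 ± 3.23 CPM in GFP (1.565-fold, adjusted p = 3.14e-06). Vps72, an H2A.Z-binding subunit of the loading complexes, had log2 fold changes of 0.18 and 0.17 and passed in both (adjusted p = 0.0036 and 0.0117, edgeR). Ruvbl1, a helicase of the same complexes, had -0.22 in both and passed. Asf1a, an H3-H4 chaperone, rose by 0.19 and 0.26 on the log2 scale, and Hira and Atrx, which act in H3.3 deposition, had -0.16 each against WT H1.4 and passed there. In WT H1.4 against GFP no gene of these 2 lists passed by edgeR, and 3 of each had an unadjusted p under 0.05, for which no share over all genes was taken.
The macroH2A genes encode H2A variants with a large extra domain and have symbols outside the rule. Macroh2a1 rose to 209 ± 17.5 CPM in H1.4 CFT neurons, against 169 ± 2.95 CPM with WT H1.4 and 169 ± 7.10 CPM in GFP (log2 0.31 in each comparison, adjusted p = 0.000109 and 0.00029, edgeR). Macroh2a2 fell to 59.8 ± 0.695 CPM in H1.4 CFT neurons, against 67.6 ± 1.32 CPM in GFP (log2 -0.18, adjusted p = 0.00914, edgeR) and had -0.03 against WT H1.4.

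Of 32 genes of S phase and division, 9 rose and 4 fell with H1.4 CFT relative to WT H1.4, and 6 rose and 4 fell against GFP, with medians of 0.20 and 0.14. Over all genes 16.7% rose and 19.2% fell in the first comparison, and 13.3% rose and 16.2% fell in the second. The 32 summed to 4124 to 4239 CPM in H1.4 CFT neurons, 5048 to 5196 CPM with WT H1.4 and 4933 to 5016 CPM in GFP, so the sum was lowest in H1.4 CFT. The falls included Stmn1, Tuba1b and Tubb5, which neurons also express. Without those 3, left out after their values were seen, the other 29 genes summed to 906 to 1093 CPM in H1.4 CFT neurons. The sum was 847 to 876 CPM with WT H1.4, below all H1.4 CFT libraries, and 831 to 931 CPM in GFP, which overlapped with H1.4 CFT. Of the 29, 9 rose and 1 fell with H1.4 CFT relative to WT H1.4, and 6 rose and 1 fell against GFP. Mcm7, a subunit of the replication helicase, had a log2 fold change of 0.45 against WT H1.4. Mki67 and Top2a, which mark dividing cells, had 0.12 and 0.17 in that comparison and did not pass. Aurkb and Hmgb2 of the same list had 0.35 and 0.25 there and passed (adjusted p = 0.0156 and 0.00563, edgeR). Against GFP they did not pass (adjusted p = 0.0628 and 0.307, edgeR). The part of the S phase and division genes in the histone results was not tested.

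Map2, a defining neuronal marker, stood at 904 ± 87.8 CPM in H1.4 CFT neurons, 1318 ± 55.3 CPM with WT H1.4 and 1398 ± 65.4 CPM in GFP. Over all genes, 19.2% fell and 16.7% rose with H1.4 CFT relative to WT H1.4, 16.2% fell and 13.3% rose relative to GFP, and in WT H1.4 neurons 0.509% fell relative to GFP. Of 16 neuronal markers 11 fell and 2 rose with H1.4 CFT relative to WT H1.4, 12 fell and none rose relative to GFP by edgeR, and their sum was 6577 to 7706 CPM in H1.4 CFT neurons, 9448 to 9521 CPM with WT H1.4 and 9186 to 9489 CPM in GFP. Astrocyte and radial glia markers were 10 of 15 tested higher with H1.4 CFT than with WT H1.4, with sums of 3742 to 3899, 3075 to 3195 and 3667 to 3921 CPM for H1.4 CFT, WT H1.4 and GFP, and Sox2 was at 0 in all libraries. Relative to GFP, 2 of those 15 rose in H1.4 CFT and 7 fell in WT H1.4. Oligodendrocyte lineage markers summed to 476 to 552, 477 to 573 and 473 to 583 CPM, and 0 of 9 tested passed by edgeR against WT H1.4. At an unadjusted p under 0.05 there were 2, and no share over all genes was taken at that threshold. Microglia markers summed to 9.02 to 12.8, 10.8 to 15.0 and 12.2 to 13.6 CPM, with 3 of 11 tested. Of these 3, Csf1r rose and P2ry12 fell with H1.4 CFT relative to WT H1.4 and relative to GFP, and Cd68 passed in neither. Endothelial, mural and fibroblast markers came to 76.8 to 87.9, 65.6 to 82.2 and 94.1 to 106 CPM, with 4 of 11 tested higher and 1 lower against WT H1.4. The part of these cell types in the histone results was not tested.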

How the data were processed

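The authors deposited 1 table of raw counts per gene symbol for each of 11 libraries of polyadenylated RNA. Per the submitters' processing notes, STAR 2.7.2b, HTSeq 0.10.0 and the mRatBN7.2 build were used. The annotation release and strand setting are not given in the sources used here. The 5 summary entries of the counter, 53.1% to 54.1% of reads, stayed out of library sizes and tests. Whether the biological replicates named in the series design came from separate cultures is not given, so p-values measure the spread between these libraries.

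The tests used edgeR 4.0.16 under R 4.3.3, with the 11 libraries in 1 fit with TMM scaling and a term for group. Genes passed filterByExpr (minimum count 10, minimum total 15, about 0.588 CPM). SEs are the log2 fold change divided by the square root of F. The spread was 7.02% (coefficient of variation), with 8 residual degrees of freedom. The fit was tested on simulated data. Sequences and overlaps came from RefSeq tables, where 40 symbols matched directly, 3 through a synonym and 2 to more than 1 entry, and 9 overlap another gene.

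Equal replicate numbers were checked by correlating deviations from group means. The correlations were 0.149, 0.174, 0.192 and 0.142 for numbers 1 to 4 of H1.4 CFT with WT H1.4, 0.255, 0.124 and 0.163 for numbers 2 to 4 of H1.4 CFT with GFP, and 0.206, 0.113 and 0.0927 for WT H1.4 with GFP. A limit of 0.1 in every pair was met in the first 2 comparisons and not in the third. Unequal numbers within 1 and 2 or within 3 and 4 correlated about as much (CFT 1 with WT 2 0.189, CFT 2 with WT 1 0.147, CFT 4 with WT 3 0.168, CFT 3 with WT 4 0.159, CFT 1 with GFP 2 0.263), so the table separates libraries 1 and 2 from 3 and 4 and does not single out equal numbers.

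The histone genes and lists were chosen with earlier results of these data known. Named genes were those past the threshold, the 10 with the most CPM, the variant genes, up to 10 untested genes with the most counts, and up to 4 called genes per list and comparison, of which not all are printed. Genes named beyond this rule were chosen after their values were seen. DESeq2 1.42.0 and limma 3.58.1 (voom) were among the alternatives.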

Additional observations from a re-analysis of the deposited data

Results flagged for a closer look

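In WT H1.4, Hist3h2a in WT 1 stood apart at 42.6 CPM, with the other 3 libraries between 39.8 and 40.1 CPM. This was the single such gap in 40 groups of 4 libraries checked, where chance gives about 1 in 20. The H1.4 CFT against WT H1.4 difference was larger in libraries 3 and 4 than in libraries 1 and 2 for 4 histone genes, in a test of that difference with the 8 H1.4 CFT and WT H1.4 libraries that was added after the data were seen. It was larger by 0.32 on the log2 scale for Hist3h2a (adjusted p = 0.0151, edgeR), 0.18 for H2az1 (0.04999), 0.17 for H3f3a (0.0154) and 0.18 for H3f3b (0.00554), and 10.6% of all genes tested passed. For H2az1 and the H3.3 genes the value was negative in libraries 1 and 2 and positive in libraries 3 and 4.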

How the results depend on the processing

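Hist1h2bq, Hist3h2a and Hist2h2aa3 stayed higher in H1.4 CFT than in both other groups under all alternatives that tested them, and Hist3h2ba stayed lower than in GFP. Leaving out single libraries gave 4 to 7 histone genes higher and 0 to 1 lower with H1.4 CFT relative to WT H1.4, 4 of them without CFT 4. Against GFP it gave 4 to 7 higher (4 without CFT 3, CFT 4 or GFP 2) and 1 lower, and 0 in either direction for WT H1.4 against GFP. Calls over all genes changed as well, with 29.3% to 36.5%, 22.5% to 29.9% and 0.249% to 1.73% passing in the 3 comparisons when single libraries were left out. Libraries 3 and 4 alone gave 10 and 1, 7 and 1, and 0 and 2 in the 3 comparisons, and libraries 1 and 2 gave 5 and 1 in the first. In those fits 43.6%, 38.8%, 9.25% and 27.9% of all genes passed, beside 35.9%, 29.5% and 0.943% with all libraries. With the replicate number as a block the counts were 7 and 1, 6 and 1, and 0 and 0, and no call of a tested histone gene changed. Without the low-count filter 8 and 1 and 8 and 1 were called in the first 2 comparisons, of 37 histone genes tested. In that fit 22.1% and 18.0% of all 29259 genes passed. RLE scaling, DESeq2, limma-voom, the stricter filter, the fit of only the groups compared and a term for the number pair left the counts as they were. The log2 ratio of the summed replication-dependent level, 0.413 against WT H1.4 and 0.285 against GFP, became 0.501 and 0.359 without TMM scaling, and 0.726 and 0.556 without Hist3h2ba, the member with the most counts, which was lower in H1.4 CFT. That of the variant genes against WT H1.4, 0.0462, became 0.136 without TMM scaling, and in WT H1.4 against GFP -0.0352 became 0.0472 without H3f3b. Genes near 1 CPM rest on few reads, and the 25 untested genes had too few for a test at this depth.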
